A study of Danio rerio with 4 samples.

Results

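The genes lyve1a (ENSDARG00000075833), chrm2a (ENSDARG00000098612), fgf13a (ENSDARG00000035056) and vsnl1a (ENSDARG00000023228) are described here as 4 genes linked to the sinoatrial region, out of 25434 genes counted in single cells of the zebrafish embryonic heart. They were chosen by name and identifier, with earlier results of these data known, and all 4 were found in the count matrices. Their unique molecular identifiers (UMIs, each standing for 1 captured transcript) were counted per cluster, stage and library. Their joint detection within single Myocardium cells and their sources outside Myocardium were then described.

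Whole hearts were taken at 72 hpf and at 48 hpf (hours post fertilization) from embryos of the enhancer-trap lines sqet31Et and sqet33mi59BEt, each crossed to Tg(myl7:mRFP). All embryos therefore carried mRFP under the cardiomyocyte promoter myl7 and an enhancer-trap EGFP that marks sinoatrial or atrioventricular pacemaker regions. Hearts were pooled and 1 library was made per line and stage, so that each stage had 2 libraries, and these replicates differ in line. The authors assigned 34676 of 52447 barcodes to 18 clusters, of which Myocardium held 1271 and 809 cells in the 72 hpf libraries (sqet31Et, then sqet33mi59BEt) and 1166 and 533 cells in the 48 hpf libraries.

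The sinoatrial region holds the primary pacemaker, a small group of cardiomyocytes that depolarize spontaneously and set the heart rate. The 4 genes stand for different effector steps there rather than for the transcription factors that specify it. Chrm2 is the muscarinic receptor through which vagal acetylcholine slows the heart, Fgf13 is a non-secreted relative of the fibroblast growth factors that binds voltage-gated sodium channels, and Vsnl1 is a neuronal calcium sensor protein. Lyve1 is a hyaluronan receptor best known from lymphatic endothelium.

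Total UMIs per library were 57372036 and 24073652 at 72 hpf and 63158786 and 109489623 at 48 hpf. The median Myocardium cell held 1824 and 891 UMIs at 72 hpf and 2734.5 and 1832 UMIs at 48 hpf, so detection differed in depth between libraries. Between 9 and 29 cell barcodes of annotated cells were shared by any 2 libraries, at most 0.342% of the smaller one. The muscle markers myl7, cmlc1 and myh6 were present in Myocardium of every library, with a summed level of 26440 and 22976 CPM (UMIs of the summed cells, scaled to a common total of UMIs per sum) at 72 hpf and 53818 and 39721 CPM at 48 hpf.

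Among annotated cells, most UMIs of lyve1a, chrm2a and fgf13a lay in Myocardium. Lyve1a had 710 UMIs there, 89.5% of its UMIs in annotated cells. Chrm2a had 378 UMIs (84.2%) and fgf13a 350 UMIs (71.7%). Vsnl1a was the least restricted, with 173 UMIs or 52.4% in Myocardium.

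Myocardium exceeded the remaining annotated cells for every gene in every library, although by different factors. The cluster was defined on all genes, so this is a description without a test. For lyve1a, summed levels in Myocardium and in the other cells were 19.6 and 2.07 CPM at 72 hpf in sqet31Et, 15.7 and 0.567 CPM at 72 hpf in sqet33mi59BEt, 99.7 and 1.07 CPM at 48 hpf in sqet31Et, and 41.0 and 0.284 CPM at 48 hpf in sqet33mi59BEt. The ratio of lyve1a thus spanned 9.48-fold to 144-fold. The ratio of chrm2a was the most even of the 4, at 24.2-fold to 31.4-fold. The ratio of fgf13a was 6.21-fold to 22.0-fold and that of vsnl1a 2.46-fold to 10.3-fold.

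**Figure D1:**
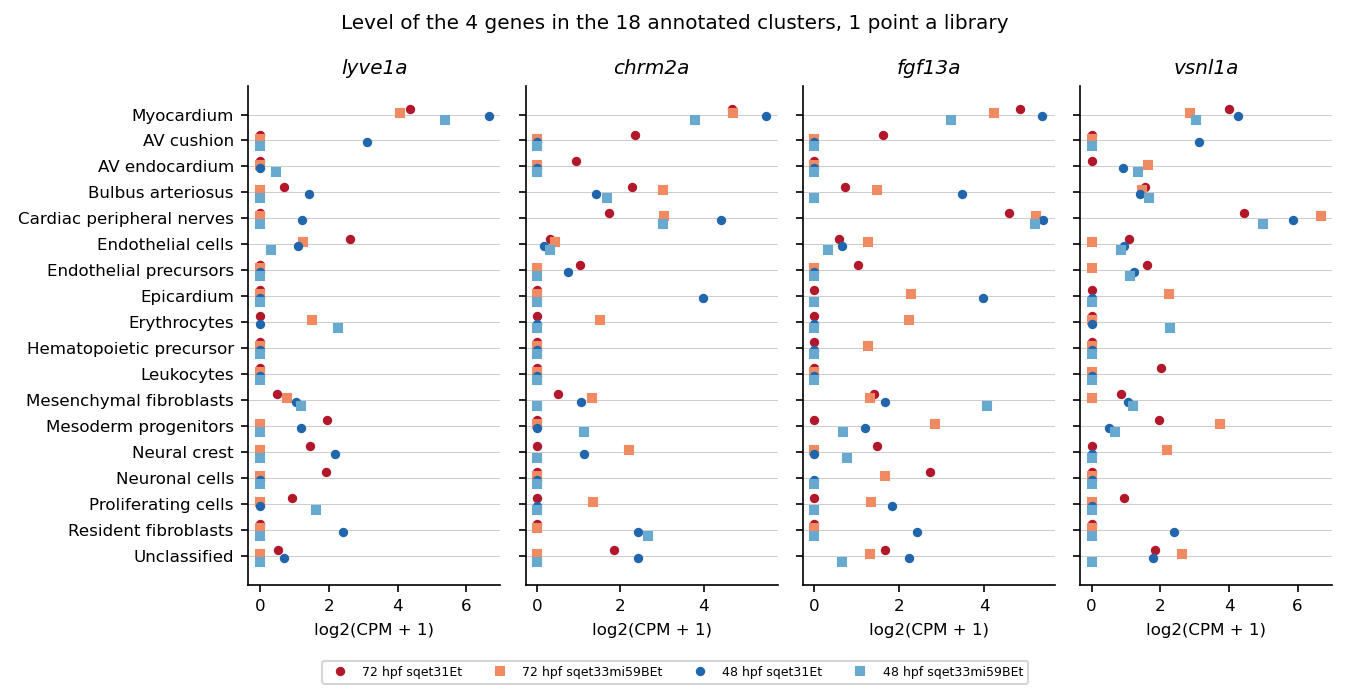
Level of each gene as log2(CPM + 1) (x axis) in the 18 annotated clusters (y axis), with 1 point per library coloured by stage and shaped by line. Lyve1a and chrm2a are highest in Myocardium, whereas fgf13a and vsnl1a are also present in Cardiac peripheral nerves, where vsnl1a averages 52.2 CPM.

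Ordered by the mean level over the 4 libraries, Myocardium came first for lyve1a, with 44.0 ± 38.8 CPM (SD, n = 4), followed by Endothelial cells with 1.98 ± 2.15 CPM. The library ranges of these 2 clusters did not overlap. From Endothelial cells downwards, no neighbouring clusters differed by more than the larger of their SDs. Chrm2a was also highest in Myocardium, with 26.6 ± 12.9 CPM, and was followed by Cardiac peripheral nerves with 9.23 ± 7.77 CPM, whose range overlapped that of Myocardium.

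Fgf13a and vsnl1a were highest in Cardiac peripheral nerves, a cluster of 937 cells. Fgf13a averaged 33.7 ± 7.66 CPM there and 23.4 ± 13.5 CPM in Myocardium (SD, n = 4 each), with overlapping ranges. Vsnl1a averaged 52.2 ± 35.7 CPM in Cardiac peripheral nerves and 11.7 ± 5.84 CPM in Myocardium. The lowest library of the nerves (20.5 CPM) lay above the highest library of Myocardium (18.1 CPM).

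The nerve signal rested on 78 UMIs of vsnl1a in 54 cells, 60 UMIs of fgf13a in 56 cells and 20 UMIs of chrm2a in 15 cells. Lyve1a had 1 UMI in these cells. The neuronal RNA-binding gene elavl3 was detected in 77.8% of nerve cells with vsnl1a and 63.1% of those without it, and elavl4 in 74.1% and 35.7%. The muscle gene myl7 was detected in 40.7% of nerve cells with vsnl1a and 43.3% of those without it. These shares were not matched for depth, and the cells with vsnl1a were deeper, with a median of 1664.5 UMIs against 1055 UMIs in the cells without it.

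The only other sizeable source of lyve1a was Endothelial cells, with 58 UMIs in 33 of 10612 cells, 11 of which held 2 or more. Of these UMIs, 41 and 4 came from the 72 hpf libraries (sqet31Et, then sqet33mi59BEt) and 10 and 3 from the 48 hpf libraries. Within this cluster, lyve1b, the other copy of the gene, was detected in 39.4% of cells with lyve1a and 0.302% of cells without it. The hyaluronan scavenger receptor gene stab2 was detected in 36.4% and 0.539%, and flt4, a lymphatic and venous receptor gene, in 18.2% and 1.03%. Myl7 was detected in 27.3% and 34.7%. These shares pool all libraries and were not matched for depth. Other lymphatic and vein-type markers are not reported here.

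In Erythrocytes, which should lack all 4 genes, between 1 and 2 of 1379 cells held a UMI of each gene, at most 0.145% of cells at a median depth of 667 UMIs. The corresponding shares in Myocardium, at a median depth of 1510 UMIs, were 2.86% for lyve1a, 6.69% for chrm2a, 5.27% for fgf13a and 3.76% for vsnl1a. After every cell was thinned to 500 UMIs, they were 1.32%, 1.30%, 1.35% and 0.582%. The other copies were nearly absent from Myocardium, with 2 UMIs of lyve1b, 0 of chrm2b, 6 of fgf13b and 2 of vsnl1b. In Cardiac peripheral nerves, by contrast, fgf13b had 41 UMIs and vsnl1b 57 UMIs.

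Across the 18 clusters, the genes with the pattern most like each member were found by Pearson's r of log2(CPM + 1), among 15822 genes with at least 50 UMIs. For lyve1a these were CDNF (r = 0.90), ANTXR2 (r = 0.89) and klhl43 (r = 0.89). For chrm2a they were CDH13 (r = 0.93), PCBP4 (r = 0.92) and HCN4 (r = 0.88). Several identifiers share the human symbol HCN4, a pacemaker channel gene, and the 1 found here had 75 UMIs in annotated cells. For fgf13a they were RALY (r = 0.86), si:ch211-288d18.1 (r = 0.86) and si:ch211-140m22.7 (r = 0.86), and for vsnl1a they included SDK2 (r = 0.91) and sox12 (r = 0.91). Among the 4 genes themselves, r was highest between chrm2a and fgf13a (0.84) and lowest between lyve1a and vsnl1a (0.36). The clusters come from the same libraries, and these values are descriptions over 18 points.

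The comparison of stages asked whether the 4 genes differed in Myocardium between 72 hpf and 48 hpf. Lyve1a was lower at 72 hpf, whereas no difference was detected for the other genes. Summed levels of lyve1a were 19.6 and 15.7 CPM at 72 hpf and 99.7 and 41.0 CPM at 48 hpf. Both 72 hpf libraries lay below both 48 hpf libraries. The log2 fold change (72 hpf over 48 hpf) was -2.06 with a standard error (SE) of 0.44 (edgeR quasi-likelihood test, Benjamini-Hochberg adjusted p = 0.0255, 9342 genes tested). In this comparison 4.11% of genes were called, 0.824% lower at 72 hpf and 3.29% higher. With library totals in place of TMM scaling the median of all genes moved to 0.13, against 0.01, and the lyve1a call held. Fewer cells of a type and less RNA per cell cannot be told apart in such sums.

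**Figure D2:**
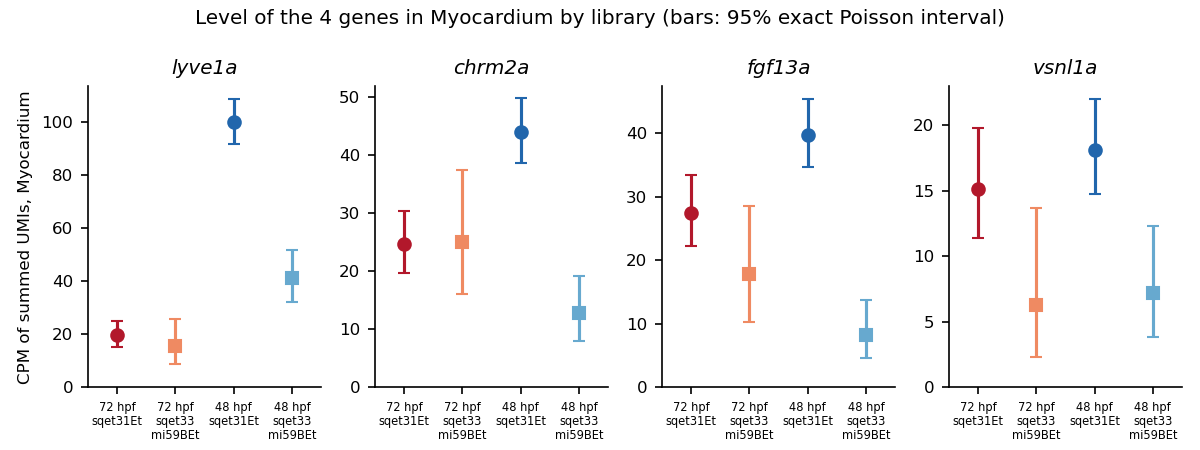
Level of each gene in CPM of the summed Myocardium UMIs (y axis) in the 4 libraries (x axis), with exact 95% Poisson intervals that cover counting error only. Both 72 hpf libraries are below both 48 hpf libraries for lyve1a, while for the other 3 genes the stages overlap.

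Chrm2a had 24.7 and 25.1 CPM at 72 hpf and 44.0 and 12.8 CPM at 48 hpf. Fgf13a had 27.5 and 17.8 CPM at 72 hpf and 39.8 and 8.32 CPM at 48 hpf. Vsnl1a had 15.1 and 6.28 CPM at 72 hpf and 18.1 and 7.21 CPM at 48 hpf. For these 3 genes the 48 hpf libraries lay on both sides of at least 1 of the 72 hpf libraries. Their log2 fold changes were -0.35 (SE 0.48), -0.18 (SE 0.57) and -0.22 (SE 0.54), with edgeR adjusted p of 0.772, 0.912 and 0.882.

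The lyve1a call rested on the sqet31Et library of 48 hpf. Without it the log2 fold change was -1.32 with an edgeR adjusted p of 0.175, and with cells thinned to 500 UMIs it was -2.00 with an adjusted p of 0.0939. Liver transcripts moved with the stage in the same cells: fabp10a, apoa2 and ttr were all called higher at 72 hpf, with a summed level of 894 and 2189 CPM at 72 hpf and 11.8 and 13.9 CPM at 48 hpf, where 1 and 2 of the 3 were at 0. The bulbus arteriosus markers elnb and fbln5 were both called higher at 72 hpf as well, with a summed level of 52.4 and 57.6 CPM at 72 hpf and 3.62 and 2.77 CPM at 48 hpf. The same held for the erythrocyte marker hemgn, which with alas2 summed to 8.97 and 107 CPM at 72 hpf and 1.45 and 4.44 CPM at 48 hpf. The muscle markers myl7, cmlc1 and myh6 went the same way as lyve1a, although none was called. Their summed level was 26440 and 22976 CPM at 72 hpf and 53818 and 39721 CPM at 48 hpf. The part of all these transcripts in the lyve1a result was not tested.

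Of the other sinoatrial genes tested between stages, 1 of 9 was called higher at 72 hpf and 1 lower, against 3.29% and 0.824% of all genes. Their median log2 fold change was -0.86 against 0.01 over all genes tested. Tbx18, a transcription factor gene of the venous pole, was higher (log2 fold change 1.92, edgeR adjusted p = 0.0427), and colec10 was lower (-1.43, edgeR adjusted p = 0.0284), although with library totals its adjusted p was 0.0816. Tbx18 also marks the epicardium, and together with the epicardial markers tcf21 and wt1b it summed to 24.4 and 24.1 CPM at 72 hpf and 7.78 and 4.44 CPM at 48 hpf. Tcf21 had a log2 fold change of 1.25 (edgeR adjusted p = 0.325). The part of epicardial transcripts in the tbx18 result was not tested. None of 7 genes of muscarinic signalling and none of 10 genes of the working myocardium was called in either direction, with median log2 fold changes of -0.65 and -1.19. The 3 muscle markers had a median of -1.28 and were not called either.

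Outside Myocardium, the low-count filter left 3 tests of the 4 genes between stages over 16 clusters, and none was called in the fit without a line block. In Endothelial cells, where 8.47% of genes were called in either direction, lyve1a had 5.12 and 1.38 CPM at 72 hpf and 1.16 and 0.244 CPM at 48 hpf. Both 72 hpf libraries lay above both 48 hpf libraries, with a log2 fold change of 2.26 (edgeR adjusted p = 0.0987). With the line as replicate block it was called (2.02, edgeR adjusted p = 0.0453), as it was without the filter (2.19, edgeR adjusted p = 0.00512). It was not called with library totals (2.44, edgeR adjusted p = 0.0684) or with DESeq2 (2.12, adjusted p = 0.202). The size depended on the libraries used. Without the sqet31Et library the log2 fold change was 0.65 when that of 72 hpf was left out and 3.56 for that of 48 hpf. Without the sqet33mi59BEt library it was 2.82 when that of 72 hpf was left out and 1.42 for that of 48 hpf. In Cardiac peripheral nerves, where 1.51% of genes were called, the log2 fold change was -0.46 for fgf13a (edgeR adjusted p = 0.716) and 0.15 for vsnl1a (edgeR adjusted p = 0.940).

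Within Myocardium, lyve1a was concentrated in a few cells, unlike the other 3 genes. It was detected in 108 of 3779 cells, namely 26 and 11 cells at 72 hpf and 60 and 11 cells at 48 hpf. Of these, 28 cells held 10 or more UMIs and together 67.2% of all lyve1a UMIs in the cluster, and the highest cell held 43. Of these 28 cells, 1 and 0 came from the 72 hpf libraries and 24 and 3 from the 48 hpf libraries, so that most belonged to the sqet31Et library of 48 hpf. In sqet33mi59BEt at 72 hpf no cell held more than 2 UMIs, and 63.6% of the cells with lyve1a held 1. Chrm2a was detected in 253 cells and never exceeded 8 UMIs in a cell. Fgf13a was detected in 199 cells and vsnl1a in 142 cells. A single UMI was found in 25.9% of the cells with lyve1a, 71.9% with chrm2a, 61.3% with fgf13a and 85.9% with vsnl1a.

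**Figure D3:**
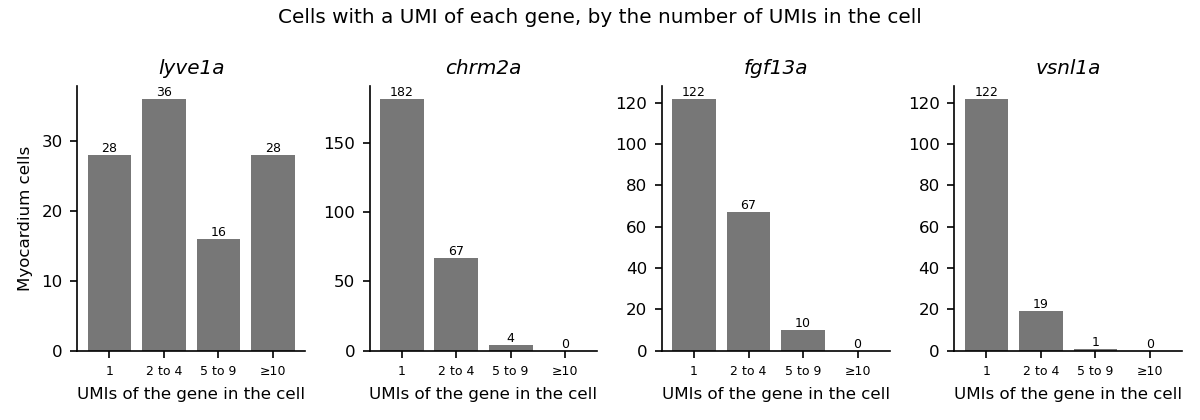
Number of Myocardium cells (y axis) that held 1, 2 to 4, 5 to 9 or at least 10 UMIs of each gene (x axis), with the 4 libraries together and cells without a UMI left out. Lyve1a has 28 cells in the highest class, where the other 3 genes have 0, and 24 of these cells are from the sqet31Et library of 48 hpf.

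Most Myocardium cells with any of the 4 genes held only 1 of them. Of the 3779 Myocardium cells, 3310 held none of the 4 genes, 325 held 1, 76 held 2, 47 held 3 and 21 held all 4. Cells with all 4 numbered 5 and 0 at 72 hpf (sqet31Et, then sqet33mi59BEt) and 16 and 0 at 48 hpf. Cells with 3 numbered 8 and 0 at 72 hpf and 36 and 3 at 48 hpf. These counts were not matched for depth. Chrm2a alone was the most frequent single-gene state, with 140 cells, followed by fgf13a alone (90 cells), vsnl1a alone (71 cells) and lyve1a alone (24 cells). Among cells with 3 genes, the combination without vsnl1a was the most frequent, with 25 cells.

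Chrm2a was detected in 62 of 108 cells with lyve1a, or 57.4% (exact 95% binomial interval 47.5% to 66.9%), and in 5.20% of cells without lyve1a (4.51% to 5.97%). Fgf13a was detected in 58.3% of cells with lyve1a and 3.70% of cells without it, and vsnl1a in 36.1% and 2.81%. Cells are not replicates, and these intervals cover counting error only.

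In single libraries, the share of lyve1a cells with chrm2a was 53.8% and 9.09% at 72 hpf and 70.0% and 45.5% at 48 hpf. The share with fgf13a was 57.7% and 0% at 72 hpf and 76.7% and 18.2% at 48 hpf. The sqet33mi59BEt libraries held 11 cells with lyve1a each, and the count of 0 of 11 at 72 hpf has an exact 95% upper bound of 28.5%. In each library and for each of the 3 genes, the share was higher in cells with lyve1a than in cells without it, except for fgf13a at 72 hpf in sqet33mi59BEt.

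Detection depends on depth, and cells with lyve1a were deeper, with a median of 4426 UMIs against 1477 UMIs in cells without it. After thinning to 500 UMIs, chrm2a was detected in 12.0% of 50 cells with lyve1a and 1.15% of cells without it, fgf13a in 10.0% and 1.23%, and vsnl1a in 2.00% and 0.563%. Each thinned share with lyve1a rested on between 1 and 6 cells.

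**Figure D4:**
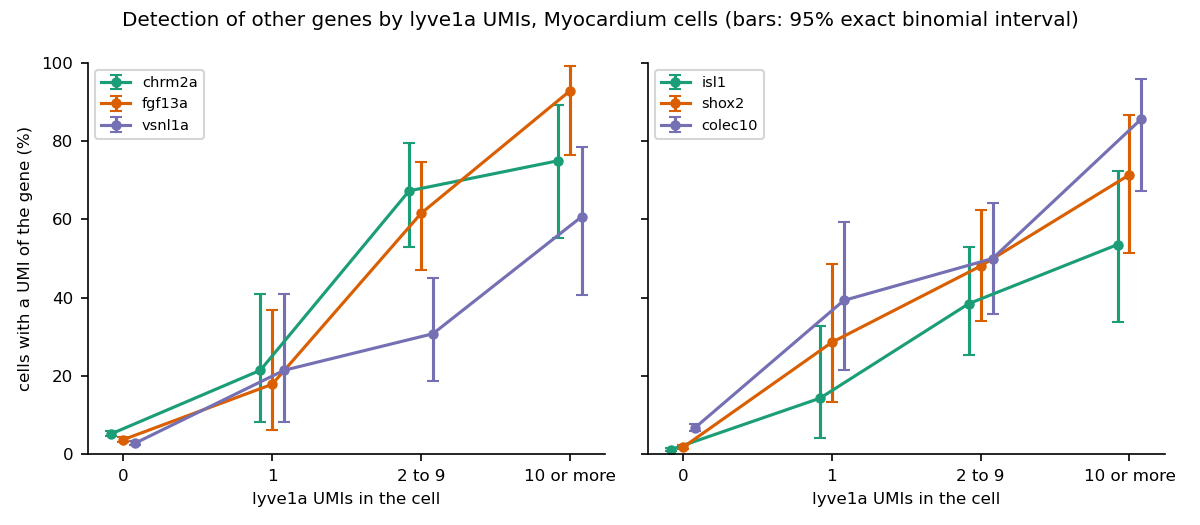
Percentage of Myocardium cells with a UMI of another gene (y axis) by the number of lyve1a UMIs in the cell (x axis), for the other 3 genes on the left and for isl1, shox2 and colec10 on the right, with exact 95% binomial intervals. Fgf13a is found in 3.70% of cells without lyve1a and in 92.9% of those with at least 10 UMIs.

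Detection of the other genes was more frequent in cells with more lyve1a. In cells with 0, 1, 2 to 9 and at least 10 UMIs of lyve1a, fgf13a was found in 3.70%, 17.9%, 61.5% and 92.9%, and chrm2a in 5.20%, 21.4%, 67.3% and 75.0%. Vsnl1a was found in 2.81%, 21.4%, 30.8% and 60.7% of these cells. Median depth increased over the same classes, from 1477 to 6408.5 UMIs. Summed levels over the same classes were 18.2, 107, 294 and 347 CPM for fgf13a, 23.2, 134, 317 and 176 CPM for chrm2a, and 10.0, 134, 91.9 and 142 CPM for vsnl1a. All 3 genes were lowest in cells without lyve1a, but only fgf13a increased at every step. The part of depth in these shares was not tested.

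Genes that accompany each member were tested by summing Myocardium cells with and without a UMI of that gene in each library and fitting library as a block. The gene used for the split was left out. For lyve1a, 16.7% of 4615 genes were called, 265 higher in cells with it (5.74%) and 505 lower (10.9%). Scaling by library totals in place of TMM gave 548 higher and 258 lower and moved the median log2 fold change of all genes to 0.22, against -0.14. All 3 other members were called higher under both scalings and without the filter on low counts. The study used lyve1a, vsnl1a and chrm2a to name sinoatrial cells in these same libraries, and reported fgf13a in those cells. The joint detection of the members, and their calls in each other's splits, are therefore not independent evidence of a link between them. After thinning to 500 UMIs, none of the 3 was among the 1311 genes tested, of which 23 were higher and 137 lower. A gene could pass the filter on low counts through its level on 1 side of a split alone. Counts over the genes of a list that passed it therefore describe those genes and support nothing about the list.

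Chrm2a had 296 and 71.9 CPM at 72 hpf and 227 and 181 CPM at 48 hpf in cells with lyve1a, against 17.8 and 24.4 CPM at 72 hpf and 31.2 and 9.60 CPM at 48 hpf in cells without it. It was higher in 4 of 4 libraries, with a log2 fold change of 2.99 (SE 0.33, edgeR adjusted p = 3.07e-17). The 71.9 CPM at 72 hpf in sqet33mi59BEt came from a single UMI in 11 cells with lyve1a, and the level of vsnl1a there was the same. Fgf13a had 330 and 0 CPM at 72 hpf and 304 and 121 CPM at 48 hpf in cells with lyve1a, against 19.8 and 18.1 CPM at 72 hpf and 21.3 and 6.21 CPM at 48 hpf in cells without it. It was higher in 3 of 4 libraries (log2 fold change 3.46, SE 0.34, edgeR adjusted p = 1.80e-21). Vsnl1a was higher in 4 of 4 libraries, with 109 ± 37.7 CPM in cells with lyve1a and 8.47 ± 3.46 CPM in cells without it (SD, n = 4 each), and a log2 fold change of 3.23 (SE 0.40, edgeR adjusted p = 7.72e-14).

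**Figure D5:**
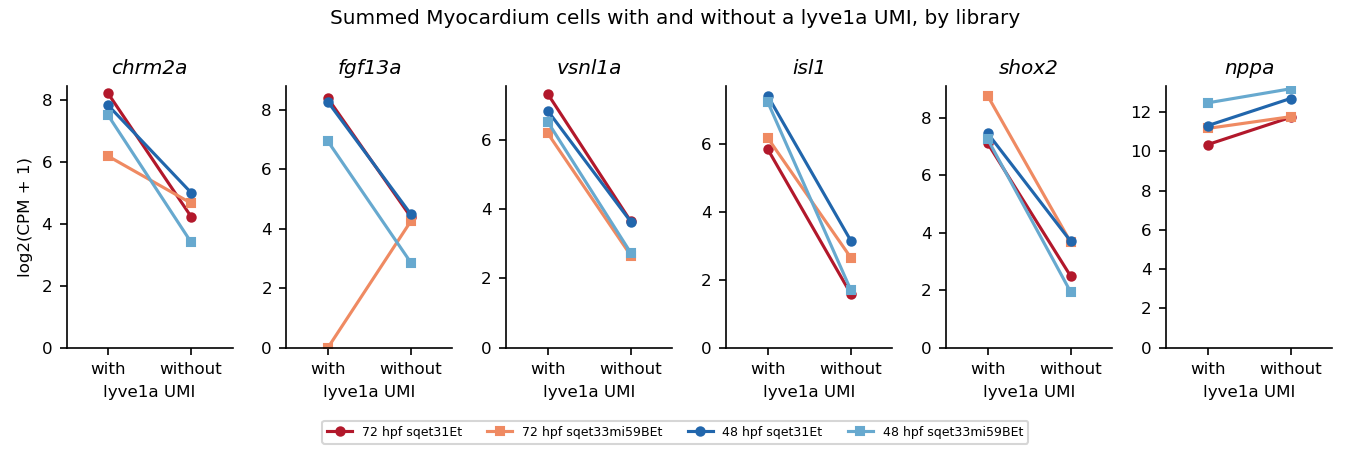
Level as log2(CPM + 1) (y axis) of 6 genes in summed Myocardium cells with and without a lyve1a UMI (x axis), with 1 line per library. Chrm2a, vsnl1a, isl1 and shox2 are higher with lyve1a in all 4 libraries, fgf13a in 3, and nppa is lower in all 4. At 72 hpf in sqet33mi59BEt, the points of chrm2a and vsnl1a with lyve1a each rest on a single UMI.

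The genes with the largest increase in cells with lyve1a, among those higher in every library, included isl1, shox2, MRAS and gpr78a. Isl1 and shox2 encode transcription factors of the sinoatrial pacemaker. Isl1 averaged 113 ± 56.9 CPM in cells with lyve1a and 4.38 ± 2.81 CPM in cells without it (log2 fold change 4.28, edgeR adjusted p = 1.08e-22). Shox2 averaged 223 ± 139 CPM and 7.78 ± 4.75 CPM (log2 fold change 4.09, edgeR adjusted p = 1.96e-23).

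Of 14 other sinoatrial genes matched, 8 passed the filter in this comparison. Besides isl1 and shox2, the genes called higher in cells with lyve1a were rgs6, colec10, bmp4 and tbx18, where 5.74% of all genes were called higher. The paper also uses bmp4, with tbx2b, to distinguish atrioventricular cardiomyocytes. Bmp4 was detected in 26.3% of Myocardium cells without lyve1a. Isl1, shox2, rgs6 and tbx18 averaged between 4.38 and 9.41 CPM in cells without lyve1a. Markers of the epicardium, which include tbx18, summed to 102 and 0 CPM at 72 hpf and 41.4 and 211 CPM at 48 hpf in cells with lyve1a, against 22.4 and 24.4 CPM at 72 hpf and 5.42 and 0.565 CPM at 48 hpf in cells without it, and their part in the tbx18 result was not tested. The study named colec10 from these same libraries, and several of the list's genes were used there to name sinoatrial cells, so their direction is not independent evidence. Cacna1g and popdc2 were not called, with log2 fold changes of -0.20 and -0.14.

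Of 10 working myocardium genes, 3 were higher and 4 lower in cells with lyve1a, against 5.74% and 10.9% of all genes. The higher ones were smtnl1 (log2 fold change 2.67), tnnc1b (2.38) and myh6 (1.53), the last encoding the atrial myosin heavy chain. The lower ones were tnni4a (-6.15), nkx2.5 (-2.20), nppa (-1.53) and myl7 (-1.23). In the paper the 3 higher genes mark atrial and tnni4a ventricular cardiomyocytes. Cells without lyve1a include both chambers, so chamber and sinoatrial state cannot be told apart in this split. Nkx2.5 encodes a transcription factor of the working myocardium and nppa the natriuretic peptide of the chambers. Nppa was lower in 4 of 4 libraries, with 1298 and 2300 CPM at 72 hpf and 2534 and 5675 CPM at 48 hpf in cells with lyve1a, against 3401 and 3482 CPM at 72 hpf and 6624 and 9334 CPM at 48 hpf in cells without it.

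Genes of muscarinic signalling were compared in cells with and without the receptor gene chrm2a. Of 6 muscarinic signalling genes tested, 2 were higher in cells with chrm2a and 0 lower, and the background of this comparison was 5.86% of 5817 genes called, 2.56% higher and 3.30% lower. Scaling by library totals gave 261 genes higher and 124 lower, against 149 and 192, and moved the median of all genes to 0.09, against -0.04. Gnao1a, a G protein alpha subunit gene, had a log2 fold change of 1.79 (edgeR adjusted p = 4.73e-10), and gng2, a gamma subunit gene, 0.73 (edgeR adjusted p = 0.0284). The alpha subunit gene gnai1 had -0.59 (edgeR adjusted p = 0.218). In cells with lyve1a, the regulator gene rgs6 was higher as well (log2 fold change 3.12, edgeR adjusted p = 3.13e-11), but it was not among the genes tested in the chrm2a comparison. The same list had 3 of 6 genes higher and 0 lower in cells with lyve1a, where 5.74% of all genes were called higher and 10.9% lower. In cells with fgf13a, 2 of 6 were higher and 1 lower, against 3.65% and 4.3% of all genes. In cells with vsnl1a, 1 of 5 was higher and 0 lower, against 0.725% and 0.646% of all genes. Gnao1a was higher in all 4 comparisons.

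All 3 other members were higher in cells with chrm2a. Lyve1a led, with 171 and 33.5 CPM at 72 hpf and 355 and 503 CPM at 48 hpf in cells with chrm2a, against 5.22 and 15.1 CPM at 72 hpf and 36.8 and 11.8 CPM at 48 hpf in cells without it. The library with the smallest difference was sqet33mi59BEt at 72 hpf, and the groups overlapped there, since its level with chrm2a lay below the highest level without it. The log2 fold change of lyve1a was 3.93 (SE 0.25, edgeR adjusted p = 1.27e-53), that of fgf13a 2.39 (SE 0.26, edgeR adjusted p = 2.46e-17) and that of vsnl1a 1.84 (SE 0.34, edgeR adjusted p = 5.32e-06). Lyve1a and fgf13a were higher in 4 of 4 libraries and vsnl1a in 3. In sqet33mi59BEt, the level with chrm2a rested on a single UMI for lyve1a at 72 hpf (33.5 CPM) and for vsnl1a at 48 hpf (9.32 CPM). The vsnl1a call was lost with DESeq2 (adjusted p = 0.0814) and without the block (edgeR adjusted p = 0.165). For lyve1a the adjusted p was 0.000254 with DESeq2 (SE 0.80) and 0.0251 with edgeR without the block. With cells thinned to 500 UMIs, the sqet33mi59BEt library of 48 hpf held 2 cells with chrm2a and was left out. In that fit lyve1a had a log2 fold change of 2.38 (edgeR adjusted p = 0.0312). Fgf13a and vsnl1a were not among the genes tested there. Shox2, isl1, THSD7B and SLC43A3 completed the 5 genes with the largest increase among those higher in every library.

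For fgf13a, 7.94% of 5540 genes were called, 3.65% higher in cells with it and 4.30% lower. Library totals gave 416 genes higher and 144 lower, against 202 and 238, and moved the median of all genes to 0.16, against -0.05. Lyve1a had 265 and 0 CPM at 72 hpf and 590 and 1182 CPM at 48 hpf in cells with fgf13a, against 4.17 and 16.2 CPM at 72 hpf and 11.3 and 20.3 CPM at 48 hpf in cells without it. It was higher in 3 of 4 libraries (log2 fold change 5.08, SE 0.33, edgeR adjusted p = 4.96e-49). For lyve1a the adjusted p was 0.00213 with DESeq2 (log2 fold change 4.61, SE 1.12) and 0.00159 with edgeR without the block. Chrm2a was higher in 4 of 4 libraries (log2 fold change 2.49, SE 0.29, edgeR adjusted p = 2.27e-15). With cells thinned to 500 UMIs, the sqet33mi59BEt library of 48 hpf held 4 cells with fgf13a and was left out. In that fit lyve1a had a log2 fold change of 2.47 (edgeR adjusted p = 0.0239), and chrm2a was not among the genes tested. Vsnl1a did not pass the filter on low counts. No sodium channel gene of the list fixed for the partners of Fgf13 passed it either. Below lyve1a, the genes with the largest increase among those higher in every library were AMPD3, MRAS, isl1, atp1b3b and shox2. Atp1b3b, a beta subunit gene of the sodium pump that the study named from these libraries, had a log2 fold change of 3.48 (edgeR adjusted p = 5.53e-21).

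For vsnl1a, 1.37% of 5106 genes were called, 0.725% higher in cells with it and 0.646% lower, the smallest shares of the 4 comparisons. Library totals gave 103 genes higher and 41 lower, against 37 and 33. Lyve1a was higher in 4 of 4 libraries, with 183 and 234 CPM at 72 hpf and 548 and 354 CPM at 48 hpf in cells with vsnl1a, against 8.68 and 13.7 CPM at 72 hpf and 47.1 and 28.3 CPM at 48 hpf in cells without it. The groups did not overlap, and the log2 fold change was 3.70 (SE 0.29, edgeR adjusted p = 2.61e-33, and 0.00701 without the block). The 234 CPM at 72 hpf in sqet33mi59BEt came from 6 cells, each with 1 UMI of vsnl1a. Myocardium of that library held 15 UMIs of lyve1a in all. Fgf13a was higher in 2 of 4 libraries and at 0 in the other 2 (log2 fold change 2.29, SE 0.31, edgeR adjusted p = 6.55e-10), and chrm2a was higher in 3 of 4 (1.85, SE 0.32, edgeR adjusted p = 2.41e-06). Both calls were lost with DESeq2, at an adjusted p of 0.576 for fgf13a and 0.0853 for chrm2a, and without the block, at an edgeR adjusted p of 0.158 and 0.169. Without the sqet31Et library of 72 hpf, chrm2a had a log2 fold change of 1.49 (edgeR adjusted p = 0.320).

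The neuronal calcium sensor gene NCS1 was among the 5 genes with the largest increase in cells with vsnl1a of those higher in every library, with a log2 fold change of 2.19 (edgeR adjusted p = 1.53e-06), beside shox2, sh3rf2, MRAS and lyve1a. The list of calcium sensors named both zebrafish copies of NCS1, but neither could be matched to 1 identifier, so the gene called here was not counted with the list. None of the 4 list genes that were tested was called there. In the comparison by lyve1a, 1 of the 4, calm1a, was lower (log2 fold change -1.19, edgeR adjusted p = 0.00154), where 10.9% of all genes were called lower.

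Genes of hyaluronan metabolism and binding, relatives of lyve1a in ligand or matrix, did not move in 1 direction. The proteoglycan gene vcana was lower in cells with lyve1a (log2 fold change -1.36, edgeR adjusted p = 0.00577) and higher in cells with chrm2a (0.99, edgeR adjusted p = 0.000135). The link protein gene hapln1a was higher in cells with chrm2a (1.13, edgeR adjusted p = 1.90e-05) and with fgf13a (1.03, edgeR adjusted p = 0.00953), and had 0.28 in cells with lyve1a (edgeR adjusted p = 0.662). The differences between these comparisons were not tested, and they share cells.

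Genes called higher numbered 265 of 4615 tested for lyve1a (5.74%), 149 of 5817 for chrm2a (2.56%), 202 of 5540 for fgf13a (3.65%) and 37 of 5106 for vsnl1a (0.725%). In all 4 comparisons 27 genes were called higher. Among them were isl1, shox2 and colec10 of the sinoatrial list, gnao1a of the muscarinic list, and smtnl1 and tnnc1b of the working myocardium list. The 4 comparisons draw on the same cells, so this count describes their overlap only.

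Cells with each gene also differed in quality. Median depth was 5767 UMIs in cells with chrm2a and 1407 in cells without it, 5329 and 1425 for fgf13a, and 5487 and 1447 for vsnl1a. The median mitochondrial share in cells with lyve1a was 12.2% and 9.08% at 72 hpf and 2.75% and 6.87% at 48 hpf, against 19.4% and 11.2% at 72 hpf and 4.47% and 8.57% at 48 hpf in cells without it, lower in every library. For chrm2a both sqet33mi59BEt libraries went the other way, with 16.96% in cells with it and 11.04% in cells without it at 72 hpf, and 11.7% and 8.39% at 48 hpf. For fgf13a the same 2 libraries had 11.28% and 11.16% at 72 hpf and 13.0% and 8.41% at 48 hpf. Endothelial markers (cdh5, tie1, fli1a and kdrl) summed to 38.7 to 215 CPM in cells with lyve1a and 70.3 to 345 CPM in cells without it, and were lower with lyve1a in every library. Neural markers summed to 30.1 to 144 CPM and 29.9 to 70.3 CPM. The part of depth and mitochondrial share in these results was not tested.

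EGFP, the reporter of the pacemaker regions, was detected in 10.2% of cells with lyve1a and 3.30% of cells without it. It was found in 1 of 26 and 1 of 11 cells with lyve1a at 72 hpf and in 6 of 60 and 3 of 11 at 48 hpf. For chrm2a the shares were 7.51% and 3.205%, for fgf13a 8.54% and 3.21%, and for vsnl1a 7.04% and 3.35%. These shares were not matched for depth, and cells with each gene were deeper. Summed EGFP was 33.5, 13.4, 41.4 and 24.4 CPM in cells with 0, 1, 2 to 9 and at least 10 UMIs of lyve1a. Cells with none of the 4 genes held EGFP in 0.444% and 2.90% at 72 hpf and 2.46% and 10.2% at 48 hpf.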

How the data were processed

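Whole UMI counts per gene and barcode were deposited as 1 matrix per library (10x 3' v3.1). The submitters' processing notes name Cell Ranger, Seurat and GRCz11. The authors also deposited a mitochondrial percent, map coordinates (a score, not used) and other columns with cluster names and a mark on barcodes that they did not keep. That mark does not separate doublets from other removed barcodes, and no doublet caller was added. Symbols came from an annotation table covering 23608 of 25434 identifiers, and 95 of 132 list symbols were matched. Symbols in capitals are those of the human gene, and 5 of 14 sodium channel symbols were matched. Where 2 identifiers share a human symbol, chrm2b and fgf13b are the copies left over.

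The genes and lists were chosen with earlier results of these data known. Sums were tested with edgeR 4.0.16 (TMM, filterByExpr, quasi-likelihood, Benjamini-Hochberg adjusted p under 0.05), with a minimum of 5 cells on each side of a split and 10 in a cluster. Alternatives were DESeq2, library totals, no filter, other blocks, thinning to 500 UMIs (seed 11) and leaving out libraries. Standard errors were derived from the fold change and the F statistic. Named genes are the 4 genes, their other copies, the lists, the 5 genes with the largest increase per split that were higher in every library, and the 3 most alike genes over clusters. A gene that this rule names is not reported here. Libraries of a stage differ in line, and the paper describes the crosses to the lines as independent. Whether libraries of the same line at different stages shared clutches is not stated. The p-values between stages measure the spread between these libraries, in which line and clutch cannot be told apart. In the splits, both sums come from the same library and library was a block. Those p-values therefore do not measure the spread of levels between libraries. A small value there did not require a difference in every library. Fgf13a in the vsnl1a split had an edgeR adjusted p of 6.55e-10 and was higher in 2 of 4 libraries. The test was checked on simulated data.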

Additional observations from a re-analysis of the deposited data

Results flagged for a closer look

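More UMIs of each gene lay in barcodes without annotation, which the reported comparisons leave out except where gene-rich barcodes were added as an alternative, than in annotated cells. These barcodes held 64.3% of the UMIs of all genes, against which stand 68.4% for lyve1a, 75.2% for chrm2a, 67.7% for fgf13a and 69.0% for vsnl1a, so that the shares lay near the background. Lyve1a had 1714 UMIs there and 793 in annotated cells, chrm2a 1360 and 449, fgf13a 1023 and 488, and vsnl1a 735 and 330. The sqet33mi59BEt library of 48 hpf contributed most, with 1146 UMIs of lyve1a outside the annotation and 81 within it (93.4%, against 75.8% for all genes). In the other 3 libraries the share of lyve1a was 37.6% to 45.7%, below that of all genes, which was 52.0% to 58.8%. Barcodes with at least 2500 genes, above the highest annotated cell, held 1202 of the lyve1a UMIs. By a rule chosen after seeing the data, 2228 of these gene-rich barcodes carried muscle transcripts, 99 and 4 at 72 hpf and 764 and 1361 at 48 hpf, and 33 of them held all 4 genes. Lyve1a was found in 1 and 0 of them at 72 hpf and in 31 and 48 at 48 hpf. Whether they are single cells or doublets was not tested.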

How the results depend on the processing

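Counts are genes past the threshold unless stated. Between stages in Myocardium, 384 genes became 866 without the filter, 110 after thinning, 646 with gene-rich muscle barcodes added (chosen after seeing the data) and 199 to 523 with a library left out. The log2 fold change of lyve1a was -2.00 thinned, -1.48 with those barcodes (edgeR adjusted p = 0.0997) and -2.56 to -1.32 with a library left out. Over its alternatives the adjusted p spanned 3.4e-06 to 0.175. That of chrm2a spanned -0.94 to 0.80 with a library left out, that of fgf13a -0.89 to 1.36 and that of vsnl1a -1.46 to 0.60. With the added barcodes fgf13a was at 0.19 and vsnl1a at 0.030, and thinned fgf13a was at 0.45. The line as replicate block changed no call of the 4 genes in Myocardium (lyve1a -2.06). Same-line libraries deviated from the stage means with r = 0.11 over 9342 genes, and with 2 pairs this is a hint only.

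For cells with lyve1a, 770 genes became 499 with DESeq2, 239 with no replicate block, 160 thinned, 432 with at least 2 UMIs, 1841 with the added barcodes and 255 to 743 with a library left out. For chrm2a, 341 became 138 with DESeq2, 684 without the filter, 14 with no replicate block, 152 thinned and 115 to 269 with a library left out. For fgf13a, 440 became 211, 55 with no replicate block, 147 thinned, 1233 with the added barcodes and 119 to 473. For vsnl1a, 70 became 16 with DESeq2, 144 with library totals, 135 without the filter, 1 with no replicate block, 206 with the added barcodes and 10 to 129, where the lowest lacks the sqet31Et library of 48 hpf, as does the lowest count for each other gene. Thinning was not run for vsnl1a, since 2 libraries had enough cells. For chrm2a and fgf13a it left out the sqet33mi59BEt library of 48 hpf. The lyve1a fit with at least 2 UMIs left out the sqet33mi59BEt library of 72 hpf, where 7 of 11 cells with lyve1a held 1 UMI. In the chrm2a split, vsnl1a had 1.61 with DESeq2 and 1.91 with no replicate block. In the vsnl1a split, chrm2a had 1.73 and 1.91, and fgf13a 1.77 and 2.38. Chrm2a there spanned 1.49 to 2.02 with a library left out. In other clusters, 1 test was called in place of 0 without the filter, with the line as replicate block and in the range of 0 to 1 with a library left out, each time lyve1a in Endothelial cells.

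The log2 ratio of Myocardium over other cells moved to 4.14 for chrm2a (4.82) and 1.31 for vsnl1a (2.41) after thinning. Thinning lowers detection in all cells, so differences in percentage points can shrink with it, and a fall alone does not measure depth. Differences in co-detection, in percentage points, were smaller after thinning. In cells with lyve1a they were 10.8 for chrm2a, 8.77 for fgf13a and 1.44 for vsnl1a. In cells with chrm2a they were 11.1 for lyve1a, 8.97 for fgf13a and 1.48 for vsnl1a. In cells with fgf13a they were 8.60 for lyve1a, 8.62 for chrm2a and 1.40 for vsnl1a, and in cells with vsnl1a 3.24 for lyve1a, 3.27 for chrm2a and 3.21 for fgf13a. With a library left out they spanned 38.1 to 57.0 for chrm2a and 32.7 to 60.8 for fgf13a in cells with lyve1a. In cells with chrm2a they spanned 16.9 to 25.1 for lyve1a, 18.2 to 32.9 for fgf13a and 11.5 to 18.5 for vsnl1a. In cells with fgf13a they spanned 18.5 to 33.2 for lyve1a, 23.3 to 42.5 for chrm2a and 10.7 to 22.6 for vsnl1a, and in cells with vsnl1a 19.3 to 31.8 for chrm2a and 14.0 to 32.5 for fgf13a. The causes were not tested.

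With 2 libraries a stage and 6 to 15 UMIs of some genes in a library, small stage differences were not detectable at this depth.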
